A study of Arabidopsis thaliana with 9 samples.

Results

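Cytochrome P450 genes carrying a CYP name (CYP, a family number, a subfamily letter and a gene number, as in CYP71B26) were examined in anthers of Arabidopsis thaliana mutants of 2 tapetal transcription factors, DYT1 and AMS. Members were all probe sets whose platform annotation, or the RefSeq synonyms of the gene it gives, carries such a name. There were 24 among the 22746 probe sets tested, naming 25 CYP genes. Of these probe sets 22 name 1 gene. The other 2 are the shared CYP71B20/CYP71B19 probe set and 1 that names CYP79C2 together with its neighbour AT1G58265, and their values cannot be assigned to a single gene. CYP71B genes make up most of the group, with 19 probe sets for 20 genes, and the remaining 5 probe sets stand for CYP51G2, CYP78A9, CYP79A2, CYP79C2 and CYP84A4. RefSeq lists 240 Arabidopsis genes with a name of this form, so most of the superfamily was not analysed here. CYP703A2 and CYP704B1, which make the hydroxylated fatty acids of the pollen wall, are among the genes not analysed here.

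Cytochrome P450s are membrane-bound haem enzymes that use electrons from NADPH to insert 1 oxygen atom of molecular oxygen into a substrate. In plants they act in the synthesis of hormones, sterols, cuticle and pollen wall monomers, phenylpropanoids and defence compounds. The CYP71 family is a large plant family with many members in specialised metabolism, and its CYP71B genes often lie beside each other in tandem arrays. In anthers the best known P450s work in the tapetum, the innermost wall layer, which supplies the developing pollen with wall precursors.

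RNA came from anthers dissected at stages 4 to 7 from plants of 3 genotypes: dyt1 mutants, ams mutants, and the wild type, Columbia. Each genotype has 3 arrays from samples described in the labels as biological replicates, 9 arrays in all, and no allele of either mutant is given in the sources used here. DYT1 and AMS are bHLH transcription factors of the tapetum. In each array the total RNA of whole anthers was read, so fewer cells of a type and less RNA per cell cannot be told apart. Values are log2 RMA expression values per probe set, in which 1 unit is a 2-fold step. The arrays carry no detection calls. A group mean at or under 4.78, the highest lower quartile of any array (range 4.58 to 4.78), is taken as not told from background, and no fold is given where a group is at that level. AMS stood at 5.66, 3.96 and 4.78 in the dyt1 arrays and at 9.61, 9.36 and 9.37 in the ams arrays, against 7.93, 7.70 and 7.55 in wild type. The position of the AMS probes against the mutated site is not known here, and AMS signal in ams arrays therefore checks no label. DYT1 was not analysed here. Of 54 marker names for anther and floral cell types, 8 had a probe set. The meiosis genes SDS, ZYP1b and ATSPO11-1 and the epidermal gene FDH had means above background in all 3 genotypes. The same held for INO, a gene of ovule integuments, while the petal gene RBE was above it in none. Single arrays could fall under that level. SDS read 5.9, 5.94 and 4.20 in wild type 1, 2 and 3, and 4.48 in dyt1 2.

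The arrays differed in ways that cut across genotype. The 25S ribosomal RNA control lay between 5.51 and 9.59 in wild type 1 and 2 and dyt1 1 and 3 (low 25S), and between 11.5 and 12.4 in wild type 3, dyt1 2 and all ams arrays (high 25S). Actin probe sets at the 3' end exceeded those at the 5' end, a gap that widens in degraded RNA, by 1.04 to 1.38 in the low 25S arrays and 2.1 to 2.92 in the high 25S arrays. Poly-A spike-in controls had mean values of 3.76 to 3.89 in wild type 1 and 2, against 6.73 to 7.25 in the remaining 7 arrays. Among the wild-type arrays only wild type 3, and among the dyt1 arrays only dyt1 2, match the ams arrays in both 25S signal and spike-in level.

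Most CYP probe sets gave little signal in these anthers. In 13 of the 24 (54.2%) no genotype mean rose above the background level, against 22.1% of all tested probe sets. These 13 were CYP71B5, CYP71B16, CYP71B21, CYP71B23, CYP71B24, CYP71B25, CYP71B27, CYP71B31, CYP71B36, CYP71B38, CYP51G2, CYP79A2 and the CYP79C2 probe set. Their values lay between 3.32 and 4.76 over the 9 arrays, and each varied over a range of 0.29 to 0.83. RefSeq lists CYP71B27 and CYP51G2 as transcribed pseudogenes. CYP71B30P, a gene between CYP71B5 and CYP71B31 whose name falls just outside the form, read 3.98 ± 0.02 in dyt1, 3.85 ± 0.26 in ams and 3.92 ± 0.13 in wild type (SD, n = 3 each).

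Signal above background in all 3 genotypes was found for 8 probe sets: CYP71B6, CYP71B22, CYP71B26, CYP71B28, CYP71B34, CYP71B35, CYP84A4 and the shared CYP71B20/CYP71B19 probe set. CYP78A9 was above it in ams and wild type, and CYP71B29 and CYP71B37 were above it in ams alone by their means. Since probes differ in affinity, levels of different probe sets are not ranked.

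**Figure D1:**
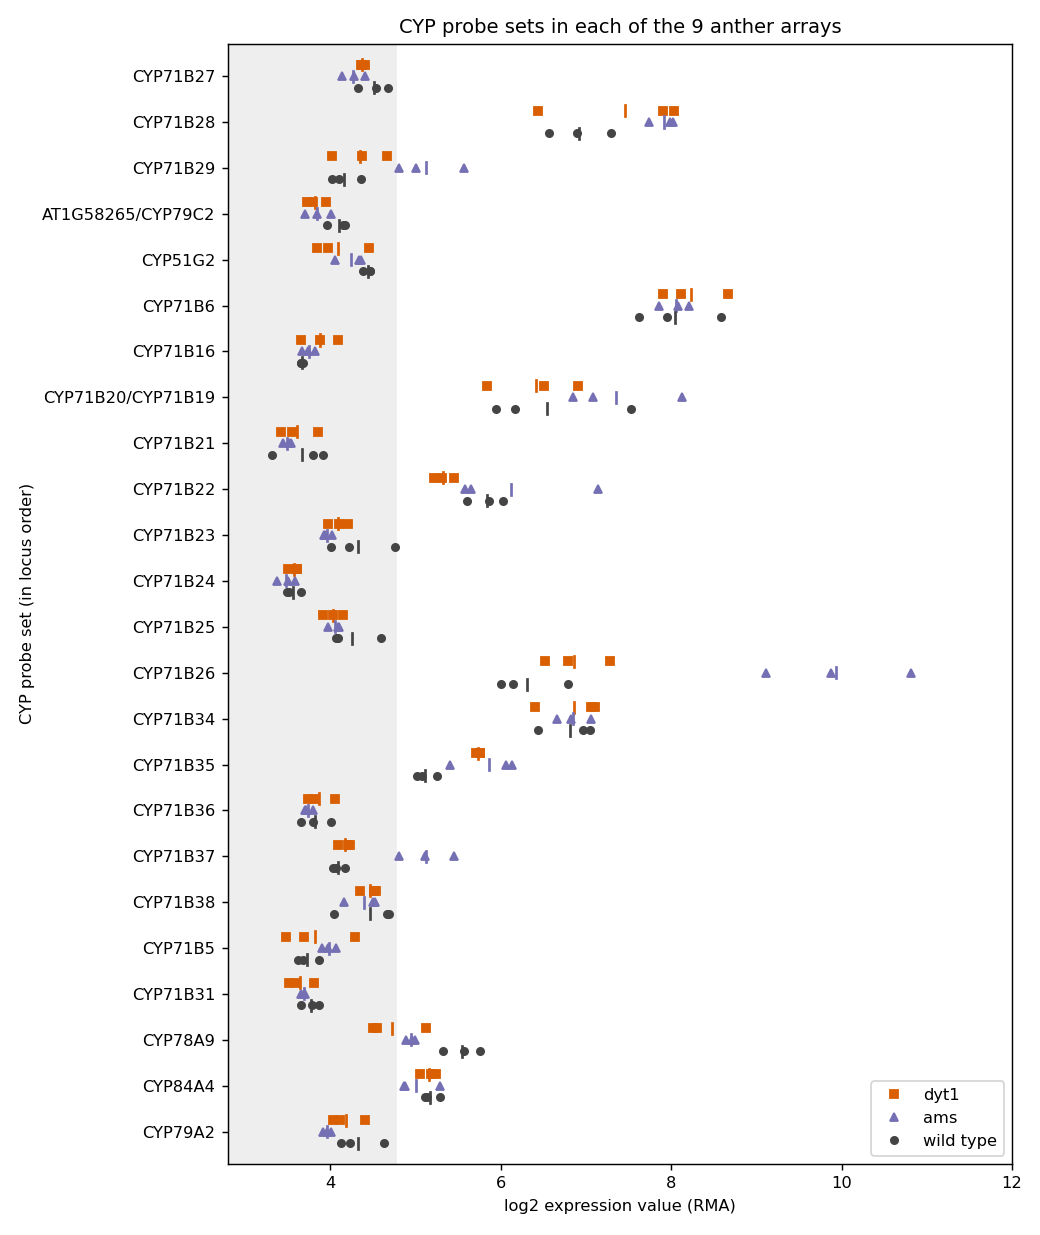
Each row is a CYP probe set in locus order and the x axis is its log2 RMA value; squares, triangles and circles are the 3 dyt1, 3 ams and 3 wild-type arrays, ticks are group means, and grey marks values up to 4.78. CYP71B26 in ams, at 9.11 to 10.81, stands clear of its dyt1 and wild-type values, while 13 probe sets stay in the grey zone by every group mean.

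In ams against wild type 2 CYP probe sets were called higher and none was called lower. CYP71B26 read 10.81, 9.87 and 9.11 in ams arrays 1, 2 and 3, against 6.0, 6.79 and 6.15 in wild type 1, 2 and 3. All ams values lay above all wild-type values by more than 2 log2 units. The means of 9.93 ± 0.85 and 6.31 ± 0.42 (SD, n = 3 each) differed by 3.62 on the log2 scale, a 12.3-fold rise (SE 0.42, 95% interval 2.67 to 4.57, limma adjusted p = 0.00261). Wild type 3, the array matched to ams in 25S signal and spike-in level, read 6.15, and within the high 25S arrays the difference was 3.78 (adjusted p = 0.0360), with wild type 3 assumed to vary like the other arrays. With 25S set as a block it was 3.87 (adjusted p = 0.00939). The call held in each of the 25 alternatives that could be run for this gene.

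CYP71B37 read 5.11, 5.45 and 4.81 in ams 1, 2 and 3, against 4.07, 4.17 and 4.04 in wild type. The 3 ams values lay above all wild-type values, and the lowest was just over the background level. The log2 difference was 1.03 (SE 0.17, 95% interval 0.63 to 1.42, limma adjusted p = 0.0172). No fold is given since the wild-type mean of 4.09 ± 0.07 was not told from background. With a floor at the 20th percentile of each array the difference was 0.66 and was not called (limma adjusted p = 0.0578). The call was lost without wild type 1 (adjusted p = 0.0792), wild type 2 (adjusted p = 0.0560), ams 1 (adjusted p = 0.0702) or ams 2 (adjusted p = 0.0567), and within the high 25S arrays (log2 difference 1.09, adjusted p = 0.0951).

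These 2 calls among 24 members stand against 3.51% of all tested probe sets called in ams against wild type, with 2.45% called higher and 1.06% lower. At an unadjusted p under 0.05 there were 6 of 24, against 21.6% of all. Values of ams and wild type were fully separate in 9 of 24 (37.5%), against 29.5% of all. Of these 6 were higher in ams, against 13.1% of all, and 3 lower, against 16.3%. The median difference of the members was -0.07 and that of all probe sets -0.05, with 11 members higher and 13 lower in ams. Without wild type 3 the count of calls was 4 (18.2% of all probe sets), without dyt1 2 it was 5 (7.14% of all), and without both arrays it was 7 (34.6% of all). The remaining wild type 1 and 2 differ from all ams arrays in 25S signal and spike-in level, so that these and genotype cannot be told apart there. It was 1, CYP71B26, without wild type 1 (1.23% of all), wild type 2 (1.55%), ams 1 (1.47%) or ams 2 (1.3%).

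Few tapetum markers could be read. Of 14 listed names, AMS and ATA27, an anther beta-glucosidase, had probe sets. AMS averaged 9.45 ± 0.14 in ams and 7.73 ± 0.19 in wild type, and ATA27 averaged 10.9 ± 1.60 in ams and 8.63 ± 2.56 in wild type (SD, n = 3 each). AMS passed the test (limma adjusted p = 0.0413), but it is the gene mutated in ams, so its signal there is no independent measure of the tapetum. ATA27 did not pass (limma adjusted p = 0.301) and overlapped, with 7.16, 7.13 and 11.6 in wild type 1, 2 and 3. Their part in the CYP71B26 and CYP71B37 results was not tested.

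CYP71B28, CYP71B29, CYP71B35 and the CYP71B20/CYP71B19 probe set had higher means in ams without passing the test. CYP71B29 read 4.80, 5.0 and 5.57 in ams, against 4.02, 4.10 and 4.37 in wild type, a log2 difference of 0.97 (95% interval 0.41 to 1.52, limma adjusted p = 0.0694). The groups did not overlap, and the wild-type values were all under the background level. It passed without wild type 3 (adjusted p = 0.0324) or dyt1 2 (adjusted p = 0.0422).

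CYP71B28, next to CYP71B29 by locus tag, read 7.74, 7.99 and 8.02 in ams, against 6.89, 6.57 and 7.29 in wild type. The groups again did not overlap, and the log2 difference was 1.00 (95% interval 0.09 to 1.90, limma adjusted p = 0.195). It passed without dyt1 2 (adjusted p = 0.0260), an array that enters here through the pooled spread. Against wild type 3 alone the difference was 0.62.

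CYP71B35 read 6.06, 6.13 and 5.41 in ams, against 5.02, 5.08 and 5.25 in wild type. Every ams value was above every wild-type value, with ams 3 close to wild type 3, and the log2 difference was 0.75 (95% interval 0.30 to 1.20, limma adjusted p = 0.0802). It passed without wild type 3 (adjusted p = 0.0398) or ams 3 (adjusted p = 0.0236). The CYP71B20/CYP71B19 probe set read 7.08, 8.12 and 6.85 in ams and 6.16, 5.94 and 7.53 in wild type. The groups overlapped through wild type 3, and the log2 difference of 0.81 (95% interval -0.31 to 1.92, adjusted p = 0.374) was -0.17 within the high 25S arrays.

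**Figure D2:**
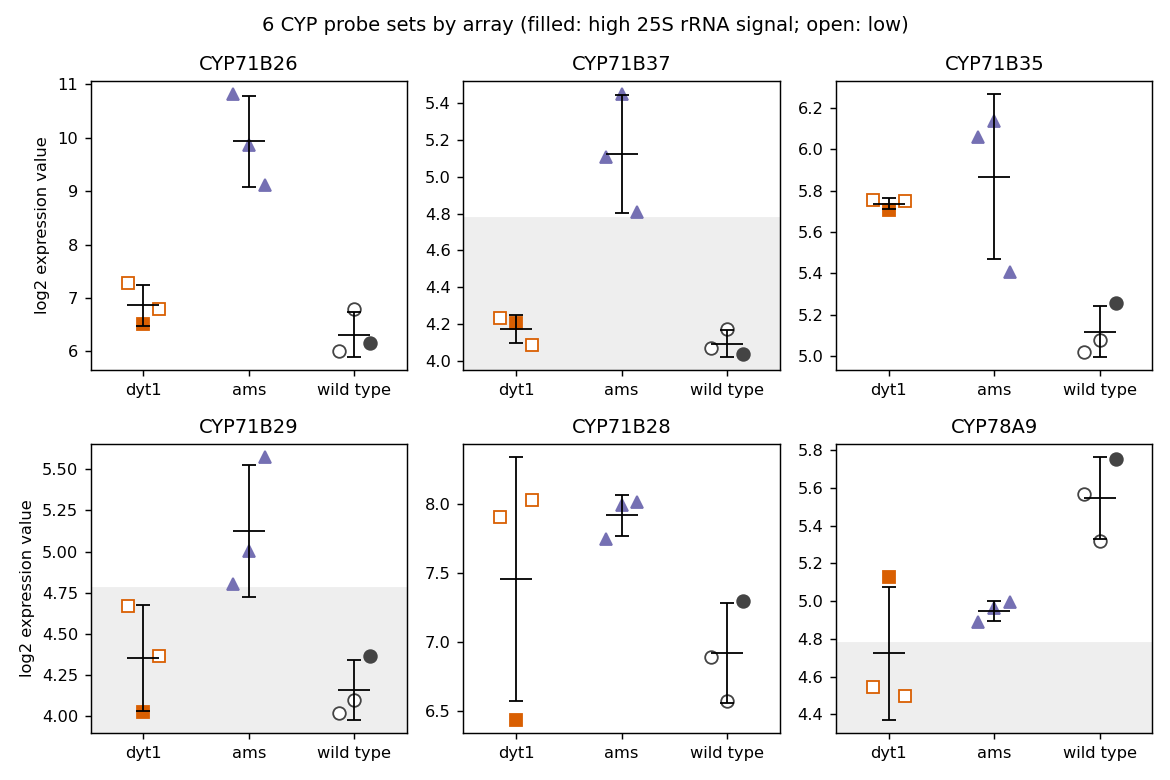
Log2 RMA values of 6 CYP probe sets are plotted by array for dyt1, ams and wild type, with filled symbols for high 25S arrays, open symbols for low 25S arrays, black bars for mean ± SD and grey for values up to 4.78; each panel has its own y scale. The lowest ams value of CYP71B26 is 9.11 and its highest dyt1 or wild-type value 7.28, CYP71B28 in dyt1 splits by 25S signal (6.43 in the filled array, 7.90 and 8.03 in the open ones), and CYP78A9 is highest in wild type.

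No CYP probe set passed the test in dyt1 anthers. The count was 0 of 24 by limma at an adjusted p under 0.05, against 0.193% of all tested probe sets (0.0747% higher and 0.119% lower), and 2 of 24 at an unadjusted p under 0.05, against 14.5% of all. Values of dyt1 and wild type were fully separate in 4 of 24 (16.7%), against 18.4% of all. Of these 1 was higher in dyt1, against 10.2% of all, and 3 lower, against 8.26%. The members' median difference was -0.0051, with 12 higher and 12 lower, and that of all probe sets 0.05. The 0 calls became 2 without dyt1 2 (CYP71B28 and CYP78A9), where 3.09% of all probe sets were called, 3 without wild type 3 and dyt1 2, where 16.4% were, and 6 within the 4 low 25S arrays, where 19.6% were. In both of these subsets genotype cannot be told apart from spike-in level.

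CYP78A9, a P450 known for promoting fruit and seed growth, was the member with the largest difference. It read 4.54, 5.13 and 4.50 in dyt1 1, 2 and 3, against 5.57, 5.32 and 5.75 in wild type. All dyt1 values lay below all wild-type values, with dyt1 2 nearest. The log2 difference was -0.82 (SE 0.20, 95% interval -1.27 to -0.37, limma adjusted p = 0.139). The dyt1 mean of 4.72 ± 0.35 was not told from background. In ams it read 4.89, 4.96 and 4.99, also below all wild-type values, a log2 difference of -0.60 (95% interval -1.05 to -0.15, adjusted p = 0.136). It passed in both comparisons without dyt1 2 (adjusted p = 0.0234 in dyt1 and 0.0477 in ams) and with 25S set as a block (adjusted p = 0.0336 and 0.0247). These comparisons share the wild-type arrays. INO, the measured 1 of 7 carpel and ovule markers, read 4.67, 5.33 and 5.31 in dyt1 and 5.19, 5.93 and 5.55 in ams, against 6.26, 6.05 and 5.63 in wild type. Its dyt1 values also lay below all wild-type values (-0.88, limma adjusted p = 0.204), its ams values overlapped them (-0.42, adjusted p = 0.392), and its part in the CYP78A9 values was not tested.

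CYP71B35 read 5.75, 5.71 and 5.75 in dyt1, against 5.02, 5.08 and 5.25 in wild type. The 3 dyt1 arrays lay close together (SD 0.03) and above all wild-type arrays. The log2 difference was 0.62 (95% interval 0.17 to 1.07, limma adjusted p = 0.224). CYP71B26 read 7.28, 6.52 and 6.79 in dyt1, and its difference from wild type was 0.55 (95% interval -0.40 to 1.5, adjusted p = 0.577), with overlapping groups. CYP71B22 read 5.22, 5.31 and 5.45 in dyt1, against 6.02, 5.87 and 5.61 in wild type, without overlap (-0.51, 95% interval -1.36 to 0.35, adjusted p = 0.571). Its ams values of 5.58, 7.14 and 5.65 enter that interval through the pooled spread.

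CYP71B28 differed between the dyt1 arrays themselves. It read 7.90 and 8.03 in dyt1 1 and 3 but 6.43 in dyt1 2, against 6.89, 6.57 and 7.29 in wild type. In the low 25S arrays both dyt1 values were above both wild-type values (log2 difference 1.24, limma adjusted p = 0.00588). There 19.6% of all probe sets were called, and genotype cannot be told apart from spike-in level. In the high 25S arrays dyt1 2 was below wild type 3. Over all arrays the difference was 0.54 (95% interval -0.37 to 1.44, adjusted p = 0.566). Without dyt1 2 it was 1.05 (adjusted p = 0.0497), with 3.09% of all probe sets called.

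Set against each other, dyt1 anthers were lower than ams anthers in CYP71B26 and CYP71B37, the probe sets called higher in ams. Both comparisons use the same ams arrays and the same pooled spread, so these calls are not independent of those against wild type. The CYP71B26 means were 6.86 ± 0.39 in dyt1 and 9.93 ± 0.85 in ams (SD, n = 3 each), a log2 difference of -3.07 (SE 0.42, 95% interval -4.02 to -2.12, limma adjusted p = 0.00596), or 8.39-fold lower. CYP71B37 read 4.23, 4.21 and 4.09 in dyt1, below all 3 ams values and not told from background, a log2 difference of -0.95 (SE 0.17, adjusted p = 0.0209). That call was lost without dyt1 1 (adjusted p = 0.0669), dyt1 3 (adjusted p = 0.0916), ams 1 (adjusted p = 0.0806) or ams 2 (adjusted p = 0.0654), each of which left 1 call among the members and 1.56% to 1.79% of all probe sets called. Within the high 25S arrays it was lost too (adjusted p = 0.0859). The tapetum markers ATA27 and AMS, the gene mutated in ams, differed in the same direction. AMS averaged 4.80 ± 0.85 in dyt1 and 9.45 ± 0.14 in ams, and ATA27 averaged 3.85 ± 0.15 in dyt1 and 10.9 ± 1.60 in ams. Their part was not tested.

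In this comparison 2 of 24 members were called, against 4.87% of all tested probe sets, with 2.42% of all called lower and 2.45% higher. At an unadjusted p under 0.05 there were 3 of 24, against 22.3%, and 5 of 24 were fully separate (20.8%), against 33.8%. Of these 1 was higher in dyt1, against 21.4% of all, and 4 lower, against 12.4%. CYP71B29 had the next smallest p, with a difference of -0.77 (95% interval -1.32 to -0.22, limma adjusted p = 0.103). CYP71B35, which had higher means than wild type in both mutants, differed between them by -0.13 (95% interval -0.58 to 0.32, adjusted p = 0.757). CYP71B28 differed by -0.46 (95% interval -1.37 to 0.44, adjusted p = 0.552). Without dyt1 2 its difference was 0.05 (adjusted p = 0.921), and within the high 25S arrays, where dyt1 2 is the only dyt1 array, it was -1.48 (adjusted p = 0.0123).

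**Figure D3:**
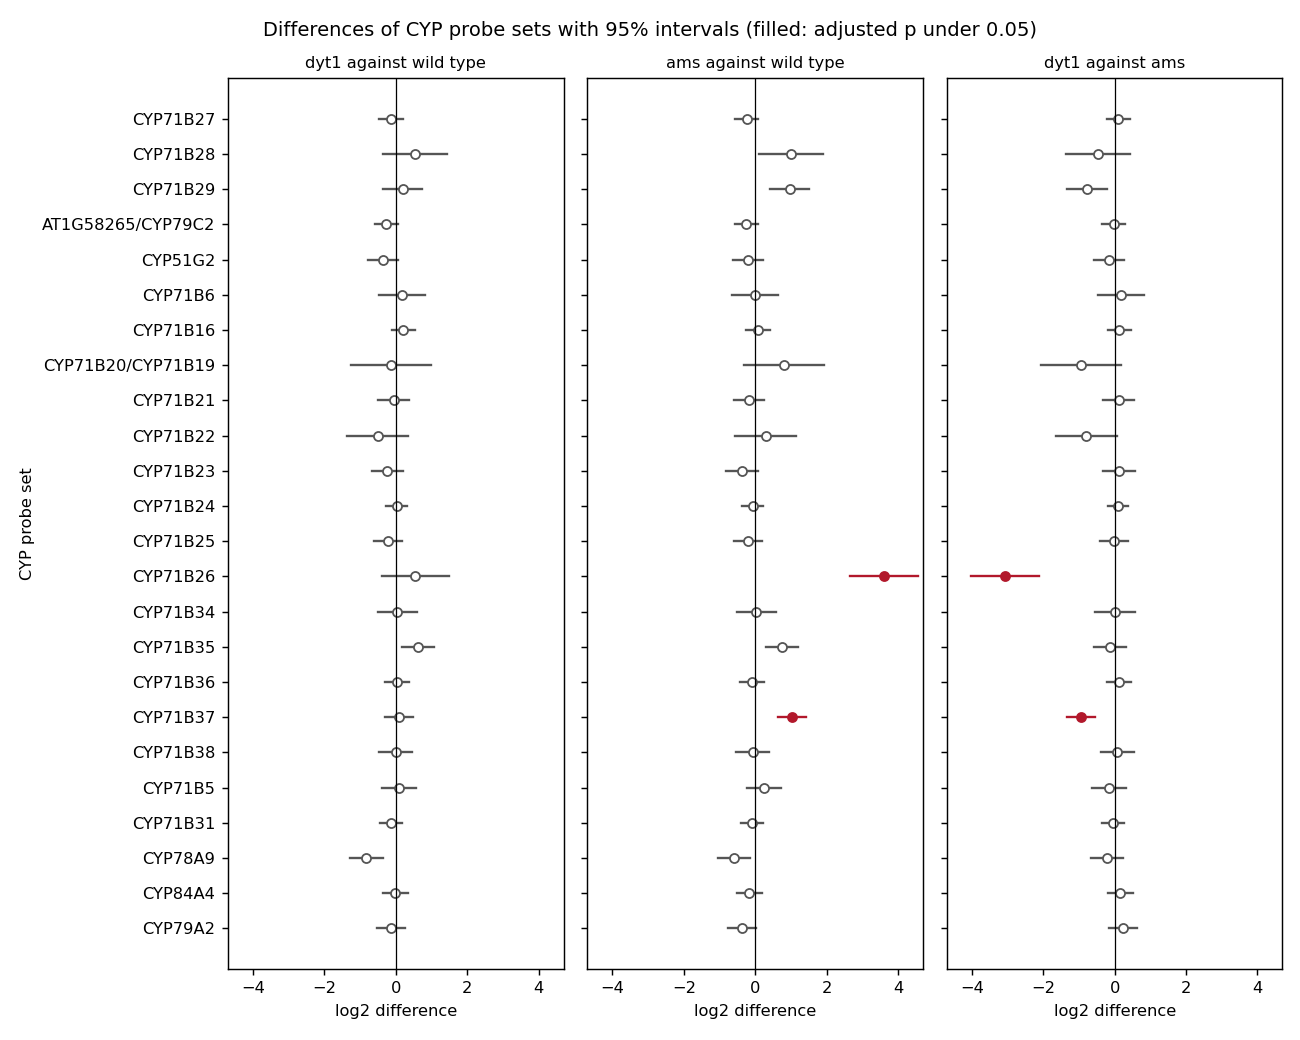
Points are log2 differences of the 24 CYP probe sets in 3 panels (each mutant against wild type, then dyt1 against ams), lines are 95% intervals from limma, and filled red points have an adjusted p under 0.05. Filled points appear for CYP71B26 (3.62 and -3.07) and CYP71B37 (1.03 and -0.95) in the ams comparisons and for none in dyt1 against wild type.

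Both called genes lie in the main tandem run of CYP71B genes, from CYP71B16 (AT3G26150) to CYP71B37 (AT3G26330). By RefSeq order this run spans 25 genes, of which 18 carry a CYP71B name, including 2 pseudogenes, and 13 of these are named by 12 probe sets. CYP71B3, CYP71B4, CYP71B17, CYP71B18 and CYP71B33 were not analysed here. Coordinates are left out because no genome build is named for the array.

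Neighbours in the run did not share one pattern. CYP71B34, 2 places after CYP71B26, read 6.66, 7.05 and 6.83 in ams, against 6.43, 6.96 and 7.05 in wild type (log2 difference 0.03, 95% interval -0.52 to 0.59, limma adjusted p = 0.956). CYP71B25, 2 places before CYP71B26, stayed at 4.05 ± 0.07 in ams and 4.25 ± 0.30 in wild type, not told from background. CYP71B36, between CYP71B35 and CYP71B37, read 3.79, 3.70 and 3.71 in ams, against 3.80, 3.66 and 4.01 in wild type (-0.09, 95% interval -0.42 to 0.25). CYP71B35, also between the 2 called genes, had higher means in ams (0.75, adjusted p = 0.0802) and dyt1 (0.62, adjusted p = 0.224) without passing the test.

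Of the run's 12 probe sets, 7 were higher and 5 lower in ams than in wild type, with a median difference of 0.06. Of all tested probe sets 10061 were higher and 12685 lower, with a median of -0.05. The run had 2 calls, against 3.51% of all. In dyt1 against wild type 7 were higher and 5 lower (all: 12634 and 10112), with a median difference of 0.03 (all: 0.05). There were 0 calls, against 0.193% of all. In dyt1 against ams 6 were higher and 6 lower (all: 13271 and 9475), with 2 called, against 4.87% of all. The 1 probe set that reads the non-P450 genes AT3G26240 and AT3G26250 of the run had a difference from wild type of -0.73 in ams (SE 0.32, limma adjusted p = 0.229) and of -0.13 in dyt1 (adjusted p = 0.882). The 12 probe sets target related sequences, and which of them also read a neighbour was not tested beyond the shared probe set.

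**Figure D4:**
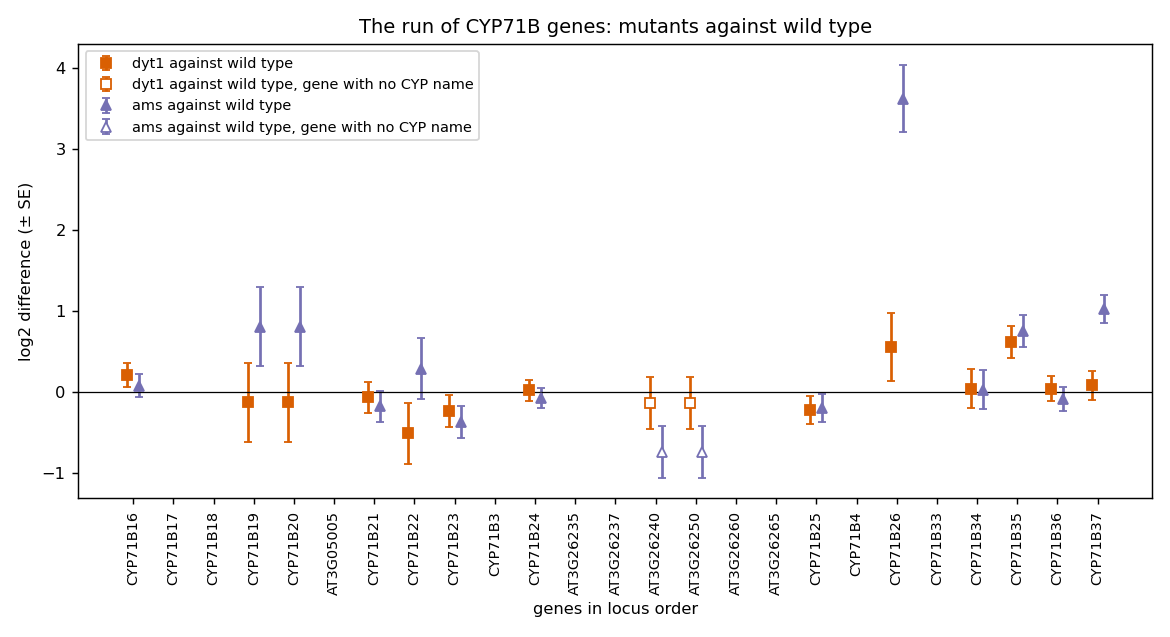
The 25 genes of the CYP71B run are placed in locus order, with log2 differences (± SE) from wild type for dyt1 (squares) and ams (triangles); open symbols mark genes with no CYP name, gaps mark genes not analysed, and CYP71B19 and CYP71B20, like AT3G26240 and AT3G26250, share 1 probe set. CYP71B26 in ams, at 3.62, is the highest point, with CYP71B37 at 1.03. Between them CYP71B35 lies at 0.75 in ams and 0.62 in dyt1, and CYP71B34 and CYP71B36 lie near 0.

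No member described here with a known role, CYP78A9 included, passed the test. CYP71B6, which oxidises indole-3-acetonitrile in indole metabolism, read 7.90, 8.67 and 8.11 in dyt1 and 7.86, 8.08 and 8.21 in ams, against 7.62, 7.95 and 8.58 in wild type. The 3 genotypes overlapped, with differences from wild type of 0.18 in dyt1 (95% interval -0.46 to 0.82) and 0.00096 in ams (95% interval -0.64 to 0.64). CYP84A4, a relative of ferulate 5-hydroxylase that acts in arabidopyrone synthesis, averaged 5.16 ± 0.10 in dyt1, 5.01 ± 0.24 in ams and 5.17 ± 0.10 in wild type (SD, n = 3 each). Its intervals were -0.37 to 0.34 in dyt1 and -0.52 to 0.19 in ams.

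CYP79A2, which turns phenylalanine into its aldoxime for benzylglucosinolate, had means of 4.19 ± 0.19 in dyt1, 3.96 ± 0.04 in ams and 4.32 ± 0.27 in wild type, all not told from background. CYP71B31, linked to linalool oxidation in flowers, read 3.64 ± 0.15 in dyt1, 3.69 ± 0.02 in ams and 3.77 ± 0.11 in wild type, and the sterol demethylase relative CYP51G2 read 4.09 ± 0.32, 4.25 ± 0.17 and 4.44 ± 0.05 in the same order. These levels give no measure of a fall, since signal at background cannot fall.

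Other genes of pathways with P450 steps were few in the annotation. The gibberellin and pollen phenolamide pathways, which are among them, have no listed P450 among the members. In 9 lists of 133 names, 10 had a 1-gene probe set. In dyt1 against wild type 0 of the 10 passed, against 0.193% of all tested probe sets. At an unadjusted p under 0.05 there were 2, against 14.5% of all. In ams against wild type 1 of the 10 was called, against 3.51% of all, and it was lower. At an unadjusted p under 0.05 there were 3, against 21.6% of all. The called gene AOP3, a glucosinolate oxygenase, averaged 5.02 ± 0.25 in ams and 8.72 ± 0.14 in wild type (log2 difference -3.70, limma adjusted p = 0.0148). In the same pathway UGT74B1, which adds glucose to the thiohydroximate, averaged 8.73 ± 0.16 in ams and 7.93 ± 0.30 in wild type (0.80, adjusted p = 0.110). DFR, an enzyme of anthocyanin synthesis, read 4.16, 4.02 and 4.18 in ams, not told from background, against 6.47, 5.11 and 4.23 in wild type (-1.15, adjusted p = 0.213). In dyt1 against ams 2 of the 10 were called, against 4.87% of all, and 3 had an unadjusted p under 0.05, against 22.3%. AOP3 (4.68, adjusted p = 0.00466) and the gibberellin signalling F-box gene SLY1 (0.64, adjusted p = 0.0442) were higher in dyt1. SHT, of the pollen phenolamide pathway, was lower without passing (-3.87, adjusted p = 0.111), at 5.06 ± 0.21 in dyt1 and 8.93 ± 1.32 in ams.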

How the data were processed

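The deposited table holds log2 expression values per probe set from 1-colour Affymetrix arrays of 9 anther samples, made with RMA (background correction, quantile normalization and probe summary) by the authors, per the submitters' processing notes. Neither a version nor whether the arrays were normalized jointly is stated. Of 22810 probe sets, 64 controls were left out of the tests. Of the 22746 tested, 14016 have an entry in the platform annotation, and the other 8730 carry no name here. Names and gene order came from RefSeq (TAIR10.1). No sequences were used.

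Group means over all 9 arrays were fitted in limma 3.58.1 (lmFit, eBayes; R 4.3.3), so that the 3 genotypes share an estimate of spread. P-values were adjusted by Benjamini-Hochberg over all 22746 probe sets per comparison and called under 0.05. The number of arrays limits the precision. The code was tested on simulated data. Members and lists were chosen with earlier results of these data known. Named members were those called, those of a role list, the 5 with the highest wild-type means, and the 5 largest differences not called per mutant. Pathway genes named were those called and up to 2 more with the smallest adjusted p. Of 91 names in 15 role lists of P450s, 5 had a probe set. Other members are named only in counts, or as neighbours in the CYP71B run, chosen after their values were seen. Same-numbered arrays of different genotypes correlated between -0.01 and 0.24 in their deviations from group means. Arrays of different genotypes with other numbers correlated between -0.27 and 0.14. The planned fit did not pair samples by number, and whether the numbers mark pairs was not tested. Counts with the replicate number as a block are given below.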

Additional observations from a re-analysis of the deposited data

How the results depend on the processing

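Of 26 alternatives, none turned the sign of the 4 called differences, and CYP71B26 kept both calls in every alternative that could be run (log2 difference 3.18 to 4.03 in ams against wild type and -3.48 to -2.63 in dyt1 against ams). CYP71B37 kept each of its calls in 17 of 25 alternatives. Of 38 further pairs of a named member and a comparison, none called in the planned fit, 15 were called under at least 1 alternative and 19 turned sign under at least 1.

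Shares in brackets are of all probe sets called. In dyt1 against wild type the planned count of CYP probe sets called was 0 (0.193%). It was 8 with array weights, 1 with 25S set as a block (1.2%) and 6 in the 4 low 25S arrays (19.6%). Without wild type 3 and dyt1 2 it was 3 (16.4%), and without single arrays 0 to 2 (0.0044% to 3.09%). In ams against wild type the planned count was 2 (3.51%). It was 1 with a floor at the 20th percentile (4.01%), 1 at an adjusted p under 0.01 (1.14%) and 1 in the test against 1.5-fold (0.739%). Array weights gave 9. Without wild type 3 and dyt1 2 it was 7 (34.6%), and without single arrays 1 to 5 (1.23% to 18.2%). In the 5 high 25S arrays, with wild type 3 the only wild-type array, the log2 differences were 3.78 for CYP71B26 and 1.09 for CYP71B37. In dyt1 against ams the planned count was 2 (4.87%). It was 6 with array weights, 1 at an adjusted p under 0.01 (1.27%), 1 with a 2-fold limit (3.11%) and 1 in the test against 1.5-fold (0.805%). Without wild type 3 and dyt1 2 it was 3, with CYP78A9 added (26.2%), and without single arrays 1 to 2 (1.56% to 12.9%). In the 5 high 25S arrays, with dyt1 2 the only dyt1 array, the log2 differences were -3.41 for CYP71B26, -1.48 for CYP71B28 and -0.92 for CYP71B37. Array weights called 38.4%, 39.2% and 39.4% of all probe sets in these comparisons. With the replicate number as a block (replicate block) the counts were 0, 2 and 2, the same as planned. There 0.237%, 2.4% and 3.2% of all probe sets were called. Leaving out dim probe sets kept 11 of the 24 members. Causes of these shifts were not tested.

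With each array centred on its median, the median difference of all probe sets was -0.06 in dyt1 against wild type (planned 0.05). In ams against wild type it was -0.17 (planned -0.05). The counts stayed at 0, 2 and 2, with 0.193%, 3.29% and 4.11% of all probe sets called. Signal near background limits the 13 dim members.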
